A study of Homo sapiens with 6 samples.

Results

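A set of 10 genes that build, methylate, bind or remove the mRNA cap was followed in BE(2)-C cells after siRNA against PCIF1, and all 10 were among the 13885 genes of the authors' deposited table. The genes are PCIF1, CMTR1, CMTR2, RNMT, RAMAC (formerly FAM103A1), RNGTT, NCBP1, NCBP2, EIF4E and DCP2, taken by symbol after the Ensembl identifiers were matched without their version. BE(2)-C is a human neuroblastoma line used as a model of neuronal differentiation by retinoic acid. The labels give 6 samples of WT genotype, 3 transfected with an siRNA against PCIF1 and 3 with a scrambled control siRNA (siScramble), for 24 h in both groups. ATRA (all-trans retinoic acid) at 10 µM followed in all 6 for 4 days, so that no group is free of ATRA. A single siRNA was named for PCIF1 and a single one for the control. The labels do not say whether the 3 samples of a group were separate cultures, and the p-values therefore rest on the spread among these samples, which may be technical. The table holds 1 comparison of the groups and no values per library.

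The cap is a guanosine joined backwards to the first base of an mRNA. RNGTT removes a phosphate from the nascent 5′ end and adds the guanosine, RNMT with its activating subunit RAMAC methylates that guanosine, and CMTR1 and CMTR2 methylate the ribose of the first and of the next nucleotide. Where the first base is adenosine, PCIF1 adds a further methyl group and so makes m6Am. In the nucleus the cap is held by NCBP2 together with its larger partner NCBP1, in the cytoplasm eIF4E (EIF4E) binds it to start translation, and DCP2 cuts it off before the mRNA is degraded from the 5′ end.

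The first transcribed base decides whether a transcript can carry m6Am, so the annotated starts of the cap genes themselves are shown here. The promoter sequences are those of RefSeq on GRCh38.p14, which held 9 starts for 8 of the 10 genes, with CMTR2 present with 2 starts. NCBP1 and RNMT are named only. Each line gives 30 bases in the direction of transcription, with the first transcribed base in capitals.
PCIF1 (chr20:45934668-45934697, plus strand): cagcgcatgcgcagcGcggagtcccggccc
CMTR1 (chr6:37433206-37433235, plus strand): caggctgcgctgcccGcagtactggacccg
CMTR2, first listed start (chr16:71289708-71289737, minus strand): gcccttggggccagcAgccagtgagcggaa
CMTR2, other start (chr16:71289388-71289417, minus strand): tgcgcagtgggacttGagtgcctcctggtc
RAMAC (chr15:82986195-82986224, plus strand): ccggaagcggaagtcAggtggttgtcggat
RNGTT (chr6:88963604-88963633, minus strand): ggcggaagttgcggtGcattgtgggttctc
NCBP2 (chr3:196942514-196942543, minus strand): gtgccgggagtcgccGcattgtggtccgct
EIF4E (chr4:98929119-98929148, minus strand): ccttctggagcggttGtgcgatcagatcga
DCP2 (chr5:112976783-112976812, plus strand): ccgccccttccccttCtcgtctccgttgga

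Adenosine was the first base at 2 of these 9 starts, in RAMAC and at the first listed start of CMTR2, against 44.4% of all 35116 RefSeq starts. Guanosine stood first at 6 of the 9 starts, those of PCIF1, CMTR1, RNGTT, NCBP2 and EIF4E and the other start of CMTR2, against 33.6% of all starts. DCP2 began with a cytosine. These are annotated starts, and the starts used in these cells were not measured. The RefSeq start of PCIF1 lies 55 bases inside the gene as GENCODE draws it. That of EIF4E lies much farther inside, at 98929133 on the minus strand of a gene that GENCODE begins at 98930637. GENCODE gives NCBP2 12 different starts and RNMT 10. GC contents and counts per kilobase given below are those of the GENCODE main transcript, which may differ from the RefSeq one. RNGTT and NCBP2 share the word GCATTGTGG from the first transcribed base onwards, a likeness noticed on reading the sequences. Of all 35116 RefSeq starts these were the 2 that had it at that position. Searched on both strands of the whole window, from 250 bases before to 50 after the start, the word was in 151 promoters (0.43%). The word CGGAAG (both strands) was in 5 of the 9 windows of cap genes, those of NCBP2, DCP2, RNGTT, RAMAC and 1 of CMTR2, against 19.5% of all windows. The word GCATGCGC (both strands), which lies just before the start of PCIF1, was in 3.05% of all windows and in that of no other cap gene. CGGAAG and GCATGCGC were also chosen after these sequences were read, so their shares here are no test of enrichment.

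Among the 10 cap genes 4 rose with siPCIF1, PCIF1 itself was lower, and the other 5 were not called. Called means a DESeq2 adjusted p under 0.05 per the authors' deposited table, in which 34.0% of all genes were called, 16.3% as higher and 17.7% as lower. The 4 that rose were NCBP2, RNMT, EIF4E and NCBP1, and all of the genes other than PCIF1 had a log2 fold change above 0 per the authors' deposited table. The median log2 fold change of the 10 genes per the authors' deposited table was 0.41, against 0.006 over all 13885 genes. Fold changes are given as siPCIF1 over siScramble. The header does not state their direction, which was set so that PCIF1 is lower with siPCIF1. The sign of PCIF1 is therefore no result, and under the opposite reading, which is how the table's name reads if siScramble is put over siPCIF1, every sign given here would turn. In bulk RNA a lower value can mean less RNA in each cell or fewer cells that express the gene, and these cannot be told apart.

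**Figure D1:**
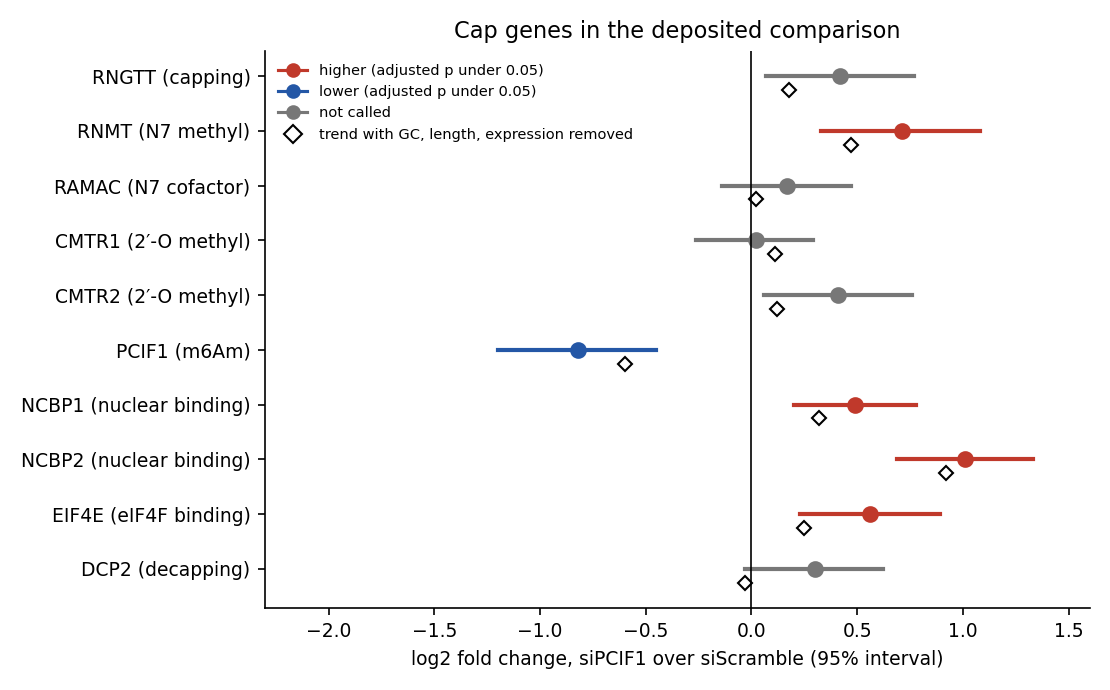
Log2 fold change (horizontal axis, siPCIF1 over siScramble) of the 10 cap genes per the authors' deposited table, ordered by step from capping to decapping. Circles are the deposited values, bars their 95% intervals from the SE, and open diamonds the values after the trend with GC content, transcript length and expression was removed; NCBP2 lies farthest to the right at 1.01 and PCIF1 farthest to the left at -0.82, and these are also the outermost diamonds.

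RNGTT, the first enzyme of capping, was just short of the threshold. Its log2 fold change per the authors' deposited table was 0.42 (SE 0.18, DESeq2 adjusted p = 0.0515), or 134% of the siScramble level, 95% interval 105 to 170%. When p-values of the authors' deposited table were adjusted among genes with a mean normalised count of at least 100, the adjusted p of RNGTT, from the DESeq2 p-values, became 0.0435. In another setting a linear trend on GC content, transcript length and mean count was taken out of the authors' deposited table. RNGTT was then at 0.18 and far from a call (adjusted p = 0.495 from the DESeq2 values). RNGTT (ENSG00000111880.15) lies on chromosome 6 from 88610272 to 88963721 on the minus strand in GRCh38. It overlaps RF00045 on its own strand by 189 bases, and a pseudogene of it, RNGTTP1, is annotated but not listed, so shared reads are uncertain.

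RNMT, the methyltransferase of the cap guanosine, rose and its cofactor RAMAC was not called. RNMT was at 0.71 (SE 0.19) per the authors' deposited table, 163% of the siScramble level (95% interval 126 to 212%), with a DESeq2 adjusted p of 0.00139. That value of the authors' deposited table was above those of 92.6% of the 2952 genes whose mean count lay within 1.5-fold of its own. With the direction turned, RNMT would be at 61.2% of the siScramble level and above 7.32% of those genes of the authors' deposited table. RAMAC was at 0.17 (SE 0.15, DESeq2 adjusted p = 0.438) per the authors' deposited table, with an interval of -0.14 to 0.47. The difference of RNMT minus RAMAC, computed from the authors' deposited table, was 0.54 with a 95% interval of 0.06 to 1.02. Such intervals treat the errors of both genes as independent, and 12 pairs of genes were compared in this way, chosen with the values known and without adjustment. RNMT (ENSG00000101654.17) lies on chromosome 18 from 13726660 to 13764558, and RAMAC (ENSG00000169612.3) on chromosome 15 from 82986207 to 82991057, both on the plus strand. RAMAC overlaps C15orf40 on the opposite strand by 2617 bases and lies wholly inside AC022558.2 on its own strand, so its count is uncertain.

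Neither of the enzymes that methylate the ribose was called. CMTR1, which acts on the first nucleotide, was at 0.02 (SE 0.14, DESeq2 adjusted p = 0.942) per the authors' deposited table, with an interval of 83.8 to 122% of the siScramble level. CMTR2, which acts on the nucleotide after it, was at 0.41 (SE 0.18, DESeq2 adjusted p = 0.0646) per the authors' deposited table, with an interval of 104 to 169%. The difference of CMTR2 minus CMTR1 per the authors' deposited table was 0.39, and its interval of -0.05 to 0.84 included 0. The sources place CMTR1 (ENSG00000137200.12) on chromosome 6 from 37433219 to 37482827, plus strand, and CMTR2 (ENSG00000180917.17) on chromosome 16 from 71281389 to 71289715, minus strand. CCDC167, on the opposite strand with its 3′ end 92 bases from that of CMTR1, fell and was at -0.81 (SE 0.14, DESeq2 adjusted p = 3.14e-07) per the authors' deposited table. With a linear trend on GC content, transcript length and mean count taken out of the authors' deposited table, CCDC167 was at -0.47 (adjusted p = 0.00611 from the DESeq2 values).

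PCIF1, the siRNA target and the writer of m6Am, was at -0.82 (SE 0.19) per the authors' deposited table, 56.6% of the siScramble level, 95% interval 43.7 to 73.4% (DESeq2 adjusted p = 0.000167). That value rests on a mean normalised count of 167 per the authors' deposited table, the fewest counts of the 10 genes. Of the 2894 genes with a mean within 1.5-fold of that of PCIF1, 4.56% had a lower log2 fold change per the authors' deposited table. The side on which PCIF1 lies follows from the choice of direction: turned, the authors' deposited table would put it at 177% of the siScramble level and above 95.4% of those genes. On the plus strand of chromosome 20, PCIF1 (ENSG00000100982.11) spans 45934628 to 45948023.

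The nuclear cap-binding complex was the step with both members higher. NCBP2, the subunit that holds the cap, was at 1.01 (SE 0.16, DESeq2 adjusted p = 2.04e-08) per the authors' deposited table, or 201% of the siScramble level, 95% interval 161 to 251%. Among the 2687 genes with a mean within 1.5-fold of that of NCBP2, 98.9% had a lower log2 fold change per the authors' deposited table. With the direction turned, NCBP2 would be at 49.8% of the siScramble level and above 1.08% of those genes of the authors' deposited table. NCBP1, the scaffold that NCBP2 needs for tight binding, was at 0.49 (SE 0.15, DESeq2 adjusted p = 0.0051) per the authors' deposited table, or 140% with an interval of 115 to 171%. The difference of NCBP2 minus NCBP1 per the authors' deposited table was 0.52 with a 95% interval of 0.09 to 0.95. NCBP3, a related cap-binding protein described as an alternative partner of NCBP1, was at -0.02 (SE 0.18, DESeq2 adjusted p = 0.938) per the authors' deposited table, and NCBP2 exceeded it by 1.03 (interval 0.56 to 1.50). Per kilobase of the main transcript, the mean normalised count per the authors' deposited table was 210 for NCBP2, the highest of the 10 genes, and 117 for NCBP1.

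NCBP2 (ENSG00000114503.10; chromosome 3, 196935402 to 196942597, minus strand) starts 25 bases from NCBP2-AS2, a protein-coding gene that runs the other way from the same promoter region. NCBP2-AS2 was at 0.30 (SE 0.17, DESeq2 adjusted p = 0.169) per the authors' deposited table, below NCBP2 by a difference of 0.70 with an interval of 0.23 to 1.17. With a linear trend of the fold changes on GC content, transcript length and mean count taken out of the authors' deposited table, NCBP2-AS2 was at 0.64 with an adjusted p of 0.00202 (from the DESeq2 values), and NCBP2 at 0.92. NCBP2 also overlaps NCBP2-AS1, an antisense RNA not listed in the table, by 2658 bases. The libraries were strand-specific per the labels' protocols, but how strand was handled in counting is not stated in the labels. TSTD2, whose gene runs the other way 50 bases from the start of NCBP1 (ENSG00000136937.12; chromosome 9, 97633626 to 97673748, plus strand), was at 0.15 (DESeq2 adjusted p = 0.562) per the authors' deposited table.

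EIF4E, the cap-binding subunit of the translation initiation complex eIF4F, rose. Its log2 fold change per the authors' deposited table was 0.56 (SE 0.17, DESeq2 adjusted p = 0.00396), 148% of the siScramble level, 95% interval 118 to 185%. EIF4E3, a relative that also binds the cap, rose as well and was at 0.49 (SE 0.17, DESeq2 adjusted p = 0.0186) per the authors' deposited table. EIF4E2, the relative linked to repression of translation, was at 0.31 (SE 0.14, DESeq2 adjusted p = 0.0579) per the authors' deposited table. The differences of EIF4E from EIF4E2 and EIF4E3 per the authors' deposited table were 0.25 (interval -0.17 to 0.67) and 0.07 (interval -0.40 to 0.54). With the linear trend on GC content, transcript length and mean count taken out of the authors' deposited table, the order of EIF4E and EIF4E2 turned. EIF4E2 was then called higher, at 0.49 (adjusted p = 0.0023 from the DESeq2 values). EIF4E at 0.25 and EIF4E3 at 0.16 were then not called (adjusted p = 0.285 and 0.558 from the DESeq2 values). EIF4E (ENSG00000151247.12) lies on chromosome 4 from 98871684 to 98930637, minus strand, and 5 processed pseudogenes of it are annotated, of which 0 are listed in the table, so reads shared with them are uncertain. EIF4E also overlaps TBCAP3 on its own strand by 312 bases and AC019131.1 on the opposite strand by 1741 bases, so its count is uncertain.

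EIF4EBP1, the inhibitor that binds eIF4E and keeps it from eIF4F, had the largest change of all the genes of the cap pathway examined here. It fell to a log2 fold change of -1.42 (SE 0.17, DESeq2 adjusted p = 5.17e-15) per the authors' deposited table. The main transcript of EIF4EBP1 has a GC content of 65.5%, and with the trend on GC content, length and expression taken out of the authors' deposited table it was at -0.88 (adjusted p = 4.98e-06 from the DESeq2 values). Its relative EIF4EBP2 was at -0.00 (SE 0.13, DESeq2 adjusted p = 0.988) per the authors' deposited table. EIF4E exceeded EIF4EBP1 by 1.98 on the log2 scale of the authors' deposited table (interval 1.52 to 2.45) and EIF4EBP2 by 0.56 (interval 0.15 to 0.98). Per kilobase, EIF4EBP1 had a mean normalised count of 2780 per the authors' deposited table and EIF4E one of 35, where the main transcript of EIF4E is long at 11523 bases.

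DCP2, the decapping enzyme, was not called. It was at 0.30 (SE 0.17, DESeq2 adjusted p = 0.154) per the authors' deposited table, 123% of the siScramble level with an interval of 98.2 to 154%. DCP1A, the cofactor of DCP2, was at -0.31 (SE 0.16, DESeq2 adjusted p = 0.124) per the authors' deposited table, and the difference of DCP2 minus DCP1A was 0.61 (interval 0.16 to 1.07). With that trend taken out of the authors' deposited table, DCP1A was called lower, at -0.49 (adjusted p = 0.0151 from the DESeq2 values). DCP1B, the other form of that cofactor, was at 0.18 (SE 0.17, DESeq2 adjusted p = 0.443) per the authors' deposited table. The difference of DCP2 minus NUDT3, another decapping enzyme, was -0.27 (interval -0.69 to 0.15) per the authors' deposited table. That of DCP2 minus the exonuclease XRN1 was -0.34 (interval -0.82 to 0.14), and both intervals included 0. DCP2 (ENSG00000172795.15) lies on chromosome 5 from 112976702 to 113020970, plus strand.

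**Figure D2:**
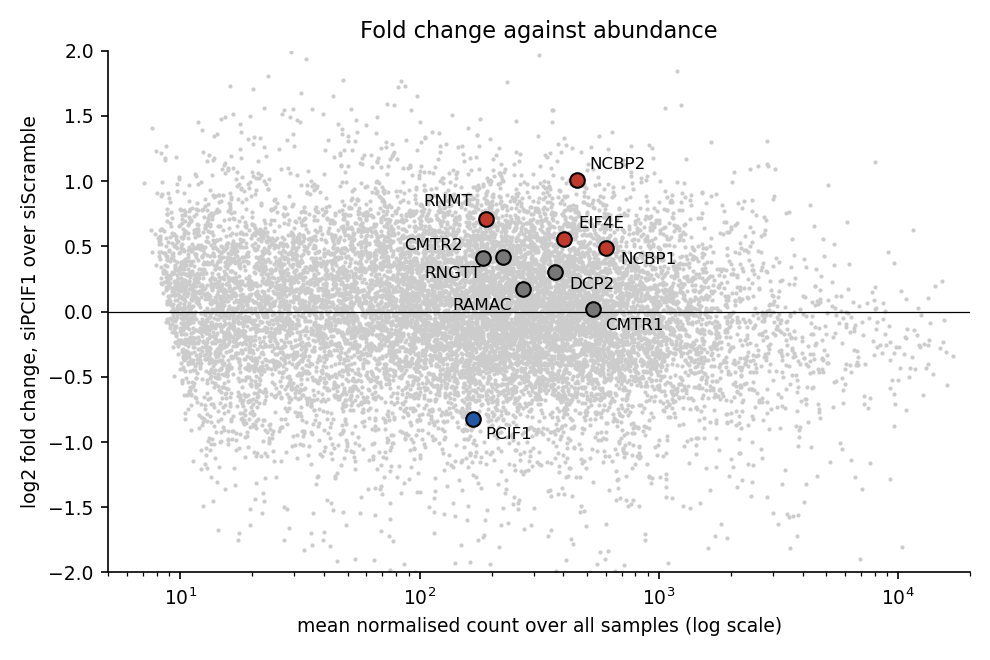
Log2 fold change (vertical axis, siPCIF1 over siScramble) against the mean normalised count over all samples (horizontal axis, log scale) per the authors' deposited table; grey points are all genes within the axes and large points the cap genes, red where higher, blue where lower and grey where not called. The cap genes span means of 167 to 604, and NCBP2 lies at the upper edge of the cloud at its abundance while CMTR1 lies on the zero line.

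Most of the cap genes that lay above 0 are poor in GC, and GC-poor genes were higher as a whole. The main transcripts of the 8 cap genes other than PCIF1 and CMTR1 have a GC content of 37.3 to 41.8%, while CMTR1 has 53.3% and PCIF1 60.3%. Of the 2352 genes of the authors' deposited table with a GC content in that lower range, 40.4% were called by DESeq2, 34.0% as higher and 6.38% as lower, with a median log2 fold change of 0.31. The 8 cap genes had 4 called higher and 0 lower, with a median of 0.45 per the authors' deposited table. Of the 4969 genes with at least the GC content of CMTR1, 5.09% were called higher and 28.2% lower by DESeq2, per the authors' deposited table, with a median of -0.19. The part of GC content in these results was not tested.

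NCBP2 and PCIF1 remained called when the linear trend with GC content, transcript length and expression was removed. With the trend taken out of the authors' deposited table, NCBP2 was at 0.92 (adjusted p from the DESeq2 values 4.99e-07) and PCIF1 at -0.60 (adjusted p 0.00995), and 25.2% of all genes were called, 12.4% as higher and 12.8% as lower. RNMT was then at 0.47 (adjusted p 0.056 from the DESeq2 values of the authors' deposited table), NCBP1 at 0.32 (adjusted p 0.0955) and EIF4E at 0.25 (adjusted p 0.285), so that 3 of the 4 increases were no longer called. RNGTT and CMTR2 were at 0.18 and 0.12 with the trend taken out of the authors' deposited table. RAMAC, CMTR1 and DCP2 were at 0.02, 0.11 and -0.03 with the trend taken out of the authors' deposited table. The median of the 10 genes was then 0.15, against 0.026 for all genes.

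**Figure D3:**
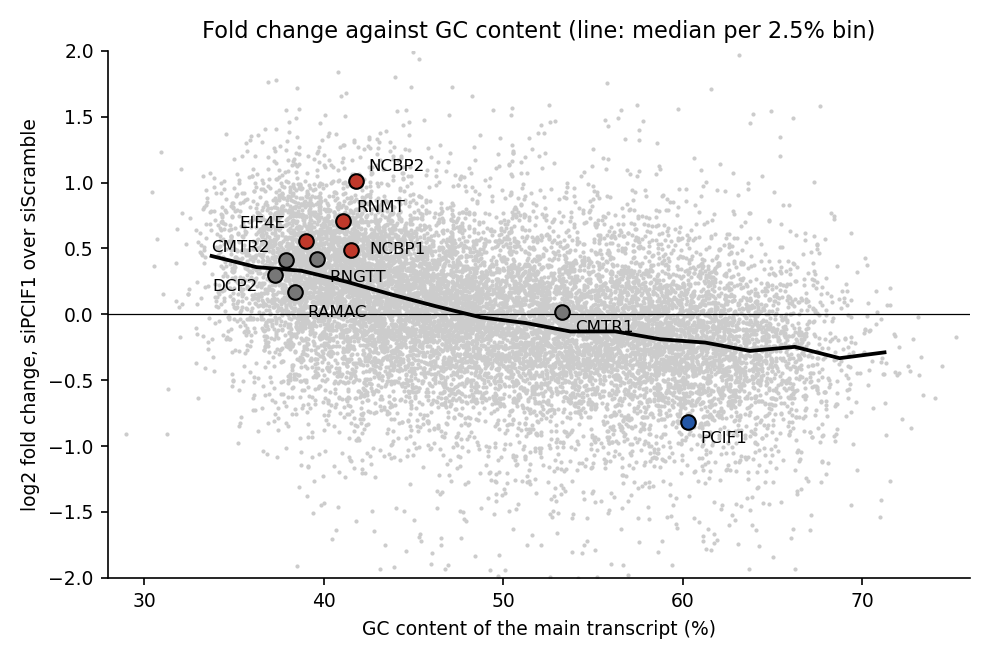
Log2 fold change (vertical axis, siPCIF1 over siScramble, authors' deposited table) against the GC content of the main transcript (horizontal axis, %); small grey points are all genes within the axes, the black line is the median in bins of 2.5%, and large points are the cap genes, red where higher, blue where lower and grey where not called. The line falls from left to right; NCBP2 at 41.8% GC lies far above it, PCIF1 at 60.3% far below it, and DCP2, CMTR2, RNGTT and RAMAC lie near it.

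A further 56 genes that act with these 10 were looked up and 54 were listed; EIF4EBP3 and DDX58 were not among the listed genes. Of the 54, 10 rose and 8 fell by DESeq2, per the authors' deposited table, with a median log2 fold change of 0.12, so 33.3% were called against 34.0% of all genes, a share near the background. With the trend taken out of the authors' deposited table, the calls among the 54 were 4 higher and 5 lower. Of all genes 25.2% were then called, 12.4% as higher and 12.8% as lower. DDX6, NUDT3, EIF4EBP1, EIF4A1 and PNRC1 remained called, and SRRT and EIF4E2 (higher) and DCP1A and LSM5 (lower) were called only then.

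Of 17 decapping activators, 2 rose and 2 fell by DESeq2, per the authors' deposited table, with a median of -0.09. These calls were 23.5% of the activators, against the 34.0% of all genes. The helicase DDX6, a partner of the decapping complex, was at 0.71 (SE 0.14, DESeq2 adjusted p = 2.59e-06) per the authors' deposited table and PNRC2, an adaptor that binds DCP1A, at 0.51 (SE 0.20, adjusted p = 0.0351). PNRC1, related to PNRC2, was at -0.65 (SE 0.14, DESeq2 adjusted p = 7.25e-05) per the authors' deposited table, and LSM4, a subunit of the LSM ring on mRNA 3′ ends, at -0.56 (SE 0.16, adjusted p = 0.002). EDC3, EDC4 and PATL1, which promote decapping, were at -0.05, -0.04 and -0.05 per the authors' deposited table and were not called. Of 7 other decapping enzymes and 5′ exonucleases, 2 rose and 1 fell by DESeq2, per the authors' deposited table, which is 42.9% called. The exonuclease XRN1, which degrades decapped mRNA in the cytoplasm, was at 0.64 (SE 0.18) and the hydrolase NUDT3 at 0.57 (SE 0.14) per the authors' deposited table, while DXO, which removes incomplete caps, was at -0.65 (SE 0.20). NUDT3 overlaps RPS10-NUDT3 on its strand, so its value is uncertain. With the trend taken out of the authors' deposited table, DDX6, PNRC1 and NUDT3 remained called. PNRC2 was then at 0.29 and LSM4 at -0.21, and neither was called (adjusted p = 0.316 and 0.35 from the DESeq2 values). XRN1 at 0.29 and DXO at -0.43 also lost their calls (adjusted p = 0.237 and 0.107 from the DESeq2 values).

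Of 7 measured partners of the nuclear complex, 1 rose and 2 fell by DESeq2, per the authors' deposited table, which is 42.9% called against 34.0% of all genes. PHAX, the adaptor for export of small nuclear RNAs, rose and was at 0.43 (SE 0.18, DESeq2 adjusted p = 0.0438) per the authors' deposited table. The mRNA export factor ALYREF and the translation factor CTIF, which binds NCBP1, fell and were at -0.49 (SE 0.14, DESeq2 adjusted p = 0.00246) and -0.54 (SE 0.15, adjusted p = 0.00292) per the authors' deposited table. SRRT, which joins the complex to RNA processing, was at 0.34 (SE 0.17, DESeq2 adjusted p = 0.108) per the authors' deposited table, and was called higher, at 0.54 (adjusted p = 0.0082 from the DESeq2 values), with the trend removed. The other three lost their calls when the trend was taken out of the authors' deposited table, with PHAX at 0.29, ALYREF at -0.16 and CTIF at -0.36 (adjusted p = 0.232, 0.44 and 0.0707 from the DESeq2 values).

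The eIF4F group held the fall of EIF4EBP1 given above. Of its 14 measured genes, 3 rose and 3 fell by DESeq2, per the authors' deposited table, which is 42.9% called against 34.0% of all genes. Besides EIF4E3, the helicase EIF4A2 and the repressor GIGYF2 rose and were at 0.38 (SE 0.14, DESeq2 adjusted p = 0.0222) and 0.42 (SE 0.16, adjusted p = 0.0251) per the authors' deposited table. EIF4H, a cofactor of the helicase, fell and was at -0.32 (SE 0.13, DESeq2 adjusted p = 0.0344) per the authors' deposited table. EIF4A1 was at -0.61 (SE 0.23, DESeq2 adjusted p = 0.0289) per the authors' deposited table, at a mean count of 45.1; it shares its strand with 5 overlapping genes, among them SENP3-EIF4A1, so its value is uncertain, as is that of EIF4A2 with 6. EIF4G1, the scaffold of eIF4F, was at -0.08 (SE 0.16, DESeq2 adjusted p = 0.733) per the authors' deposited table. With the trend taken out of the authors' deposited table, EIF4A1 remained called. EIF4A2 at 0.34, GIGYF2 at 0.36 and EIF4H at -0.13 were then not called (adjusted p = 0.0563, 0.0757 and 0.503 from the DESeq2 values).

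DESeq2, per the authors' deposited table, called 1 of 3 genes that methylate other caps or remove m6Am. It called 0 of 4 genes of S-adenosylmethionine supply and 1 of 2 sensors of RNA 5′ ends, against 34.0% of all genes. TGS1, which adds methyl groups to the caps of small nuclear RNAs, rose and was at 0.57 (SE 0.19, DESeq2 adjusted p = 0.0144) per the authors' deposited table. FTO, a demethylase reported to remove m6Am, was at 0.08 (SE 0.14, DESeq2 adjusted p = 0.69) per the authors' deposited table. Of the 4 genes of S-adenosylmethionine supply, 2 had an unadjusted DESeq2 p under 0.05 per the authors' deposited table, as had 43.2% of all genes. These were the synthetase genes MAT2A and MAT2B, at 0.39 and 0.35 per the authors' deposited table. IFIT5, a sensor of RNA with an uncapped 5′ triphosphate, rose and was at 0.72 (SE 0.18, DESeq2 adjusted p = 0.000755) per the authors' deposited table, while IFIT1 was at 0.19 (SE 0.29, adjusted p = 0.662) with a mean count of 8.72. TGS1 and IFIT5 lost their calls when the trend was taken out of the authors' deposited table. They were then at 0.43 and 0.45 (adjusted p = 0.0848 and 0.0575 from the DESeq2 values).

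**Figure D4:**
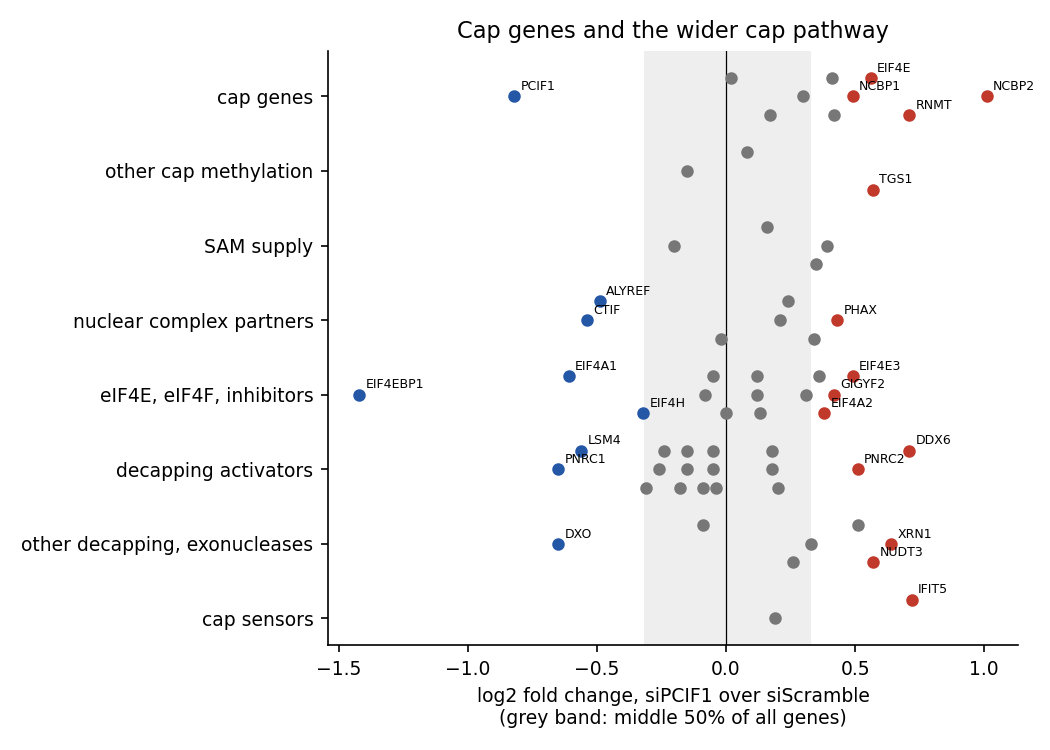
Log2 fold change (horizontal axis, siPCIF1 over siScramble, authors' deposited table) of the 10 cap genes and 54 further genes of the cap pathway, 1 point a gene, in rows by role; red marks genes called higher, blue genes called lower and grey genes not called, and the grey band spans the middle of all genes from -0.31 to 0.33. Called genes lie on both sides of 0 in the rows of the nuclear complex, eIF4F, the decapping activators and the other decapping enzymes; EIF4EBP1 at -1.42 lies farthest from 0.

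Facts of the whole table bear on these values as follows. Mean normalised counts per the authors' deposited table ran from 7.01 to 4779829 with a median of 175, and library totals were not analysed here. Markers of adrenergic neuroblastoma such as TH, DBH and HAND2 were listed, whereas 7 of 10 markers of immune, epithelial, endothelial and blood cells were not and the remaining 3 had means of 12.2 to 40.7 per the authors' deposited table. Of 4 listed mesenchymal and fibroblast markers 3 fell by DESeq2, per the authors' deposited table, where 17.7% of all genes fell, with a median of -1.02 for the 4 markers, and of 3 listed Schwann and glial markers 1 rose. Their part in the results for the cap genes was not tested.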

How the data were processed

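Poly(A)-selected RNA of 3 siPCIF1 and 3 siScramble samples was sequenced. Tools named for the authors' processing are, per the submitters' processing notes, STAR 2.7.10a, HTSeq and DESeq2 on hg38, with cutadapt 3.7, bcl2fastq 2.20 and deepTools; annotation and strand setting are not given in the sources used. Per the file headers, the authors' deposited DESeq2 table gives the mean normalised count (a signal), the log2 fold change and its SE (log2), the Wald statistic (a score), the p-value and its adjusted form. The adjusted p-values equalled a Benjamini-Hochberg adjustment over all listed genes. Depth per library is unknown; precision is that of the SE, 0.12 to 0.30 with a median of 0.18. For the 223 genes with a mean under 10 the median deposited SE was 0.30, below the 0.39 that counting error alone would give in 3 against 3 libraries of equal depth, as shrunken fold changes show. Printed fold changes may therefore be too small.

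Identifiers were matched to GENCODE 29 on GRCh38 (13877 of 13885), which gave coordinates and the main transcript (best APPRIS rank, then basic tag, support level and length). Start sequences came from RefSeq on GRCh38.p14. The 95% intervals are the value plus or minus the normal quantile times the SE. The trend was a linear regression of the log2 fold change on GC content, log transcript length and log mean count. The cap genes and the lists were chosen with earlier results of these data known; the pairs of genes and the sequence words were chosen after their values or sequences were seen. Named genes were the 10 cap genes, called genes of the wider lists, and partners or paralogues of the 10. Alternatives were other thresholds, a minimum mean, centring, the trend, a wider null spread, a minimum fold change and undone shrinkage. Tested on simulated data for 13877 genes, the trend step recovered 86.5% of 200 genes shifted by 1, and unshifted genes made up 5.98% of its calls. The simulated trend was linear in GC content alone, and the errors were independent and normal with the deposited SE. This is the form that the regression removes, so other trends and the error rate in the deposited data were not tested. Software was pandas 2.3.3, numpy 2.4.6, scipy 1.17.1 and matplotlib 3.10.9 under Python 3.11.15.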

Additional observations from a re-analysis of the deposited data

How the results depend on the processing

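No paired analysis was possible because the table holds 1 comparison and no values per sample; for the same reason no replicate could be left out. Of the cap genes, 4 were higher and 1 lower as deposited. After removal of the GC, length and expression trend, 1 was higher (NCBP2) and the median was 0.15 in place of 0.41, and DCP2, not called in either case, turned from 0.30 to -0.03. With Wald statistics scaled to their robust SD of 2.44, a spread that true changes also increase, 0 were higher and 0 lower; the adjusted p from the DESeq2 statistics was then 0.348 for NCBP2. Tested against an absolute log2 change of 0.3, 1 was higher (NCBP2) and 0 lower, PCIF1 being at an adjusted p of 0.0658 from the DESeq2 values. Of the wider pathway, 10 were higher and 8 lower as deposited. At an adjusted p under 0.01, 4 were higher and 6 lower, and at 0.1, 16 were higher and 8 lower. With the trend removed 4 were higher and 5 lower, with scaled statistics 0 and 0, and against a change of 0.3, 1 and 1. The share of all genes called was computed only as deposited and with the trend removed. Counts at the other settings, also those of the cap genes, therefore have no background beside them. With shrinkage undone under a prior SD estimated as 0.45, NCBP2 was at 1.16, and RNGTT (0.49) and CMTR2 (0.48) were also called, at adjusted p 0.0279 and 0.036 from the DESeq2 values. That step enlarges every fold change by a larger factor than its SE, so every p falls and calls can only be gained. The calls of RNGTT and CMTR2 there are therefore no added evidence. The cause of the changes between settings was not tested. A change of the size of that of DCP2 (0.30, SE 0.17) was not detectable at this precision.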
